A study of Mus musculus with 4 samples.

Results

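The genes of the cytosolic ribosome were examined in cultured neural stem cells of the mouse, precursors of the neurons and glia of the embryonic brain. Members were the protein-coding genes whose symbols are those of cytosolic ribosomal proteins (Rpl or Rps and a number, with a short paralog suffix where there is one, Rplp0 to Rplp2, and Rpsa), a rule on names that uses no measured value. There were 82 members among 55487 genes in the deposited table, of which 51 belong to the large and 31 to the small subunit. Rps3a1 and Fau encode cytosolic ribosomal proteins as well but have symbols of another form, and are given separately.

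The values were TPM (transcripts per 1000000 transcripts), which are scaled for transcript length and to one total per library. There were 4 groups with 1 library each, so no difference below has a replicate check, and no test, error or p-value is given. The control was a Tut1f/f culture, with both Tut1 alleles floxed, that received empty lipid nanoparticles (LNP). The Tut1 KO library came from Tut1f/f cells, the Trp53 KO library from p53f/f cells and the double KO library from Tut1f/f;p53f/f cells, each given Cre-LNP, nanoparticles with mRNA for the recombinase Cre. In the description of the series, treatment lasted 3 days. The controls thus carry the floxed Tut1 alleles too, and they differ from the other libraries in the cargo of the particles. Tut1, the uridylyltransferase that lengthens the 3′ end of U6 snRNA, had 12.2 TPM in the control, 29.8 TPM in the library labelled Tut1 KO, 12.5 TPM with Trp53 alone deleted and 13.7 TPM in the double KO library, so directions for Tut1 rest on labels. Gene-level TPM need not show the loss of an exon. Trp53, which encodes p53, had 119.9 and 100.4 TPM in the control and Tut1 KO libraries and 39.7 and 41.9 TPM in those where it was deleted. Wherever 4 values stand in a row below, the control comes first, then the Tut1 KO, next the Trp53 KO and last the double KO library.

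A ribosome is built from ribosomal RNA and 1 copy of most of its proteins, so the genes for these proteins are expressed at high and coordinated levels in growing cells. Many of their mRNAs begin with a run of pyrimidines, the terminal oligopyrimidine (TOP) tract, through which mTOR and LARP1 adjust translation. Free ribosomal proteins, Rpl5 among them, can bind MDM2 and thereby stabilise p53. Being short and abundant, the mRNAs have also been copied back into the genome many times, and the mouse carries large numbers of nearly identical processed pseudogenes.

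A short stretch of coding sequence shows how close such copies and paralogs can be. The first 90 coding bases of Rps27, of its retrocopy Rps27rt and of its paralog Rps27l are given 5′ to 3′ from GENCODE M21 (GRCm38), with bases that differ from Rps27 in capitals:
Rps27: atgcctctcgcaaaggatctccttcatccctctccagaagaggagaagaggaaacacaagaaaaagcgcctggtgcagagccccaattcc
Rps27rt: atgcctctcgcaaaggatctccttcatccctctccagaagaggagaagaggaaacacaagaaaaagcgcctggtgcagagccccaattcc
Rps27l: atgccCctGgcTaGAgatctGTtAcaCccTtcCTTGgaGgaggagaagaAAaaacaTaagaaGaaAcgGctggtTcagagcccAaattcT
Over the whole coding sequence of 252 bases, Rps27rt had 0 differences from Rps27 and Rps27l had 60, leaving 76.2% of positions identical. A read from the coding part of Rps27 therefore cannot be assigned between Rps27 and Rps27rt, whereas one from Rps27l can be told from both. Rps27 lies on chromosome 3 (90212522 to 90213651, minus strand), Rps27rt on chromosome 9 (114982366 to 114982739, minus strand) and Rps27l on chromosome 9 (66946086 to 66949516, plus strand).

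The start sites of 7 members, 4 with a long run and 3 with a short one, illustrate the pyrimidine tract. Each line holds 30 bases from RefSeq (GRCm38.p6), 15 of them before the annotated start, with the longest run of C or T near the start in capitals:
Rps27 (chr3:90213634-90213663, minus strand): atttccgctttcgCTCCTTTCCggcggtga
Rps27l (chr9:66946071-66946100, plus strand): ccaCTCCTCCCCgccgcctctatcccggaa
Rpl22l1 (chr3:28805493-28805522, plus strand): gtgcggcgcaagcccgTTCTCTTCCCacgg
Rpl7a (chr2:26910792-26910821, plus strand): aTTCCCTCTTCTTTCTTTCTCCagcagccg
Rps12 (chr10:23787195-23787224, minus strand): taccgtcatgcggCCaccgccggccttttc
Rpl37 (chr15:5116598-5116627, plus strand): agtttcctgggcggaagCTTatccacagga
Rpl5 (chr5:107900513-107900542, plus strand): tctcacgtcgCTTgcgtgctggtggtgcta
Of the 62 members with a start in these tables, 24 (38.7%) had a run of at least 8 C or T bases on the sense strand that reached within 5 bases of any of its annotated starts. Of 26963 other genes, 11.3% had such a run, as had 7 of 69 genes for mitochondrial ribosomal proteins (10.1%). The run was 21 bases long in Rpl7a, 10 in Rpl22l1 and 9 in both Rps27 and Rps27l, but 4 in Rpl22, 3 in Rpl37 and Rpl5 and 2 in Rps12. An annotated start can lie at some distance from the start used in these cells or from that of another gene model, and a run is only a match of letters.

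Of the 82 members, 79 had a mean of at least 10 TPM. The exceptions were Rpl3l, Rpl39l and Rpl10l, paralogs known from muscle or testis, which were listed at 0 or at no more than 0.111 TPM in each library. The 79 expressed members made up 12.9%, 15.3%, 14.3% and 13.8% of all TPM. The control thus had the lowest and the Tut1 KO library the highest share. By gene, the control was the lowest library for 49 of the 79 and the Tut1 KO library was the highest for 55.

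Levels per length were high but far from equal within a library. The median member had 1439, 1804, 1504 and 1522 TPM, and between 60 and 65 members reached 1000 TPM. The members with the highest mean were Rpl23a, a large subunit protein near the exit of the nascent chain (4679.8 TPM in the control), Rps15 (3927 TPM), Rps2 (3683 TPM), Rps14 (3159 TPM) and Rps24 (2771 TPM), the last of these the site of mutations in Diamond-Blackfan anaemia. The lowest of the 79 were Rpl7l1, Rps20, Rpl21, Rps15a and Rpl22, with 117.7, 258, 238, 254 and 371 TPM in the control. Their longest coding transcripts have 2606, 3706, 1856, 5179 and 2051 nucleotides, against a median of 937 for the expressed members. TPM divides by length, and what part this has in the low values was not tested. From the lowest member, the paralog Rpl7l1, to the highest, Rpl23a, the range was 39.8-fold in the control and 48.4-fold in the Trp53 KO library.

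**Figure D1:**
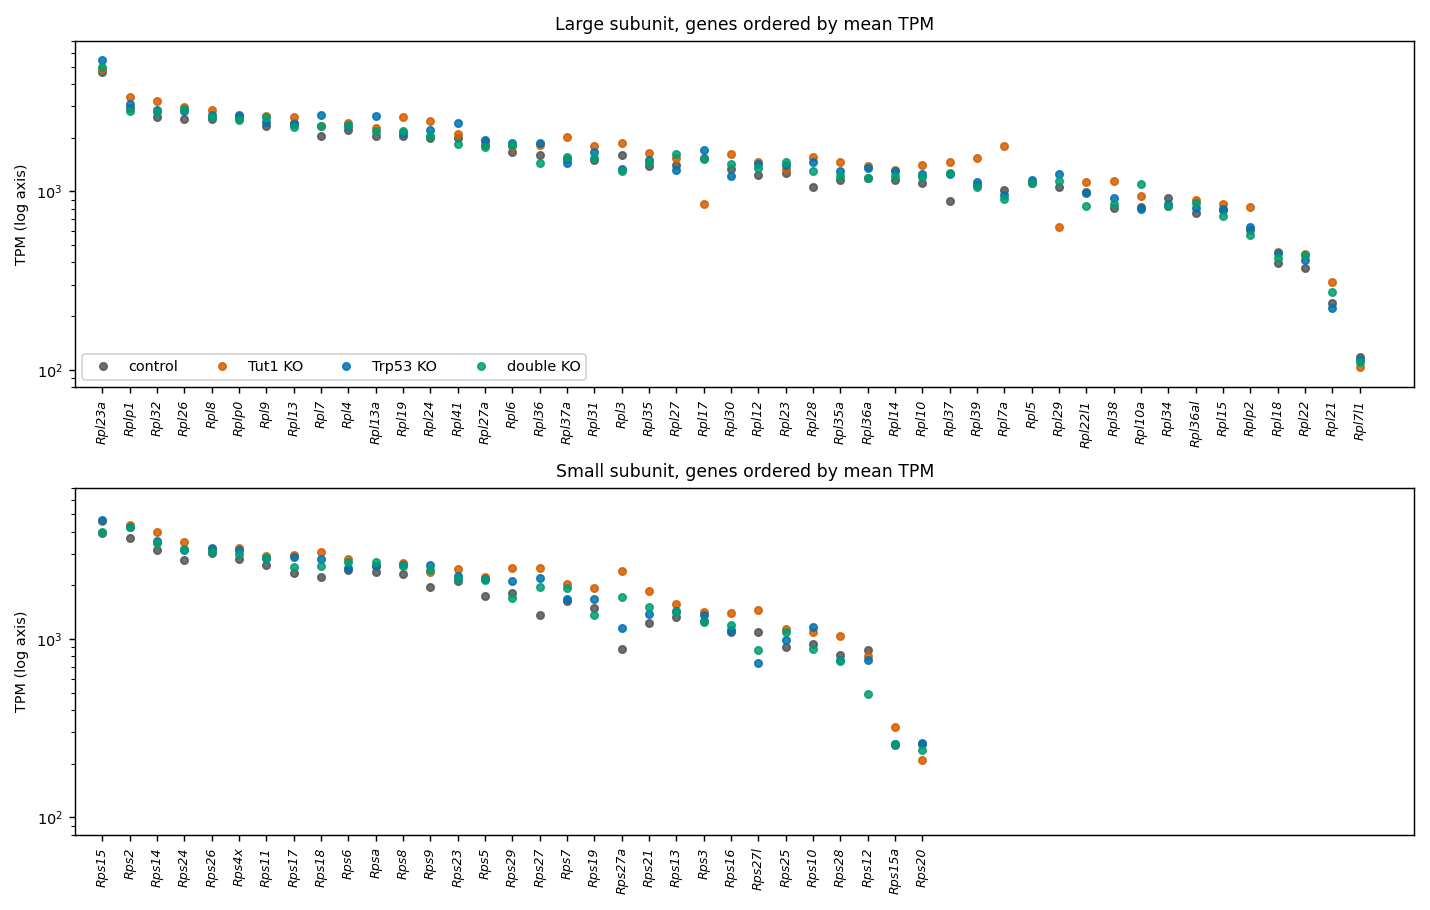
TPM (log axis) of the expressed members in the 4 libraries, the large subunit above and the small subunit below, ordered by mean TPM, with 1 point per library. The points of most genes lie close together, and Rps27a, Rpl17, Rpl29, Rps27l and Rps12 are among those with a library standing off.

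The low value of Rpl21 shows what the level of a single gene can hide. Rpl21 had 238, 312, 222 and 275 TPM, while its pseudogene Rpl21-ps15 had 1011, 1111, 1132 and 1129.8 TPM. Rpl21 was thus below several of its own processed copies in every library, among them Gm14648 with 399, 430, 445 and 413 TPM. Relatives were defined as other genes, pseudogenes or protein-coding, with a transcript at least 90% identical to the member over at least 60% of its own length and 200 bases. Family values are sums of TPM, each scaled for its own transcript length, and are no counts of reads. With its 72 relatives Rpl21 came to 4107, 4423, 4657 and 4404 TPM, which places the family among the most abundant, and the gene itself held between 4.76% and 7.05% of it.

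Such division was widespread. Of the 79 members, 71 had at least 1 relative and 68 had a relative with at least 10 TPM, and the 847 relatives together held between 3.29% (control) and 3.68% (Trp53 KO) of all TPM. In the median member, 87.7% of the 50-base windows of the coding sequence were found letter for letter in a relative, and in 25 members every window was. The gene held over 90% of the TPM of its family in every library for 35 members and under 50% for 4. For 20 members the share of the gene moved by more than 10 percentage points between libraries. How reads with several matches were divided is not given in the sources used here, so whether these pseudogenes are transcribed or hold reads of the parent gene was not tested. Results below are for the gene alone unless relatives are named, and the main medians and the large single differences are given both ways.

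The question of Tut1 deletion with Trp53 intact was addressed by Tut1 KO minus control, where the particles differed as well. Differences are of log2(TPM + 1), and genes with at least 10 TPM in either library were compared. The median member was higher by 0.23 in the Tut1 KO library, and 72 of 79 were higher, against a median of -0.09 over all 9032 genes tested. With relatives summed, the median was 0.24 and 73 members were higher. Of all genes tested, 39.3% were higher. Every expressed member was above 100 TPM. The 1679 genes with at least 100 TPM in either library had a median of 0.002, with 50.5% higher. Of these 1679, 75 were past 1.5-fold upward and 94 downward. The small subunit had a median of 0.31 and the large subunit 0.20, and with relatives these were 0.28 and 0.21. Quantile normalization, which equalises the distribution of values among libraries, lowered the median of the members to 0.11.

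Few single members moved far in this contrast. At a difference of at least 1 in either direction, 1 member was past the threshold, Rps27a, beside 4.1% of all genes. At 1.5-fold, 5 members were higher (Rps27a, Rps27, Rpl7a, Rpl37 and Rps21) beside 4.01% of all genes, and 2 were lower (Rpl17 and Rpl29) beside 8.1%. With relatives summed, 1 member was still past 1.5-fold, Rpl29. Most of the large single values therefore belonged to divided families.

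Rps27a, which encodes ubiquitin fused to a small subunit protein, had 875, 2420.3, 1145 and 1718 TPM. Its processed pseudogene Rps27a-ps2 had 833, 231, 706 and 368 TPM. The gene was highest where the pseudogene was lowest. Summed over the family the values were 1979, 2805, 2332 and 2294 TPM, and the difference of Tut1 KO minus control went from 1.47 to 0.50.

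Rps27, a zinc finger protein of the small subunit, had 1369.9, 2509.7, 2185 and 1958 TPM. Rps27rt, with its identical coding sequence, had 652, 121, 135 and 264 TPM. The control was lowest for the gene and highest for the copy, and the family sums of 2033, 2646, 2332 and 2232 TPM gave a Tut1 KO minus control difference of 0.38 in place of 0.87.

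Rpl37 of the large subunit had 883, 1455, 1257 and 1261 TPM, and its retrocopy Rpl37rt had 1315, 674, 567 and 552 TPM. Its difference of 0.72 became -0.05 with relatives. Rpl7a, whose start carries the long pyrimidine run shown above, had 1019, 1804, 954 and 912 TPM, and its difference of 0.82 became -0.07. Summing only the pseudogenes that carry a member's name gave 0.25 for Rpl7a and left Rps27 at 0.87 and Rpl37 at 0.72. Rpl17, which lies near the exit of the nascent chain, had 1538, 851, 1715 and 1522 TPM, while Rpl17-ps10 had 503, 1189.97, 444 and 748 TPM. The difference of Rpl17 went from -0.85 to 0.27 with relatives, the opposite direction.

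Rpl29 stood apart because its family moved with it. Rpl29, a basic protein of the large subunit also known to bind heparin, had 1063, 629, 1257 and 1149.6 TPM. With its 55 relatives it had 1831, 1187, 2064 and 1969.6 TPM. The Tut1 KO library was the lowest by either measure, while it was the highest for 55 members. The difference of Tut1 KO minus control was -0.76 for the gene and -0.62 with relatives.

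**Figure D2:**
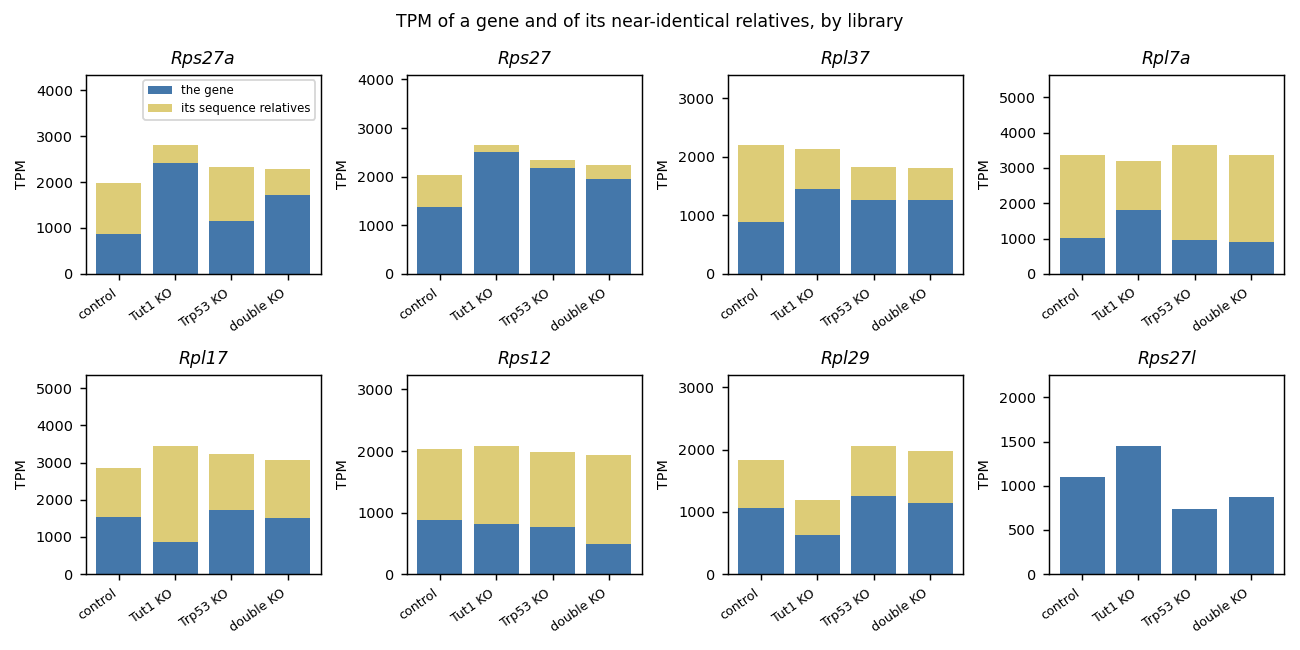
TPM (linear axis from 0) of 8 members in the 4 libraries, as stacked bars of the gene and of its sequence relatives, 1 library per bar. In Rps27a, Rps27, Rpl37, Rpl7a, Rpl17 and Rps12 the boundary moves more than the total, in Rpl29 the total falls in the Tut1 KO library, and Rps27l has almost no TPM in relatives.

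Tut1 deletion without Trp53 was addressed by double KO minus Trp53 KO, where both libraries had Cre-LNP. Here the median member was at -0.05, against 0.05 over all 8976 genes, and 54 of 79 members were lower. With relatives summed the median was -0.07 and 62 were lower. Of all genes 58.7% were higher, and the 1659 genes with at least 100 TPM had a median of 0.05, with 59.0% higher. Past a difference of 1 there were 0 members, beside 3.21% of all genes. Past 1.5-fold there were 0 higher, beside 3.48%, and 1 lower, Rps12, beside 4.41%. Large and small subunit medians were -0.07 and -0.02.

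Rps12, a small subunit protein, had 872, 806, 766 and 489 TPM. Rps12-ps3, annotated as protein-coding despite its name and identical over the 494 aligned bases, had 875, 960, 906 and 1167 TPM. The gene was lowest and the copy highest in the double KO library, and the family had 2031, 2089, 1991 and 1933 TPM. The difference of -0.65 became -0.04 with relatives. Summation also worked the other way for Rpl37a, since Gm4149, a processed pseudogene, had 115, 73.7, 798 and 71.5 TPM. In double KO minus Trp53 KO, the difference of Rpl37a itself was 0.11 and that of its family -0.47.

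Trp53 deletion was addressed by Trp53 KO minus control and, in Tut1f/f cells given Cre-LNP, by double KO minus Tut1 KO. The first again differs in the particles, and floxed Tut1 is carried only by the control. In Trp53 KO minus control, the median member was at 0.13, against -0.05 over all 9055 genes, and 65 of 79 were higher. With relatives summed the median was 0.14 and 71 were higher. Of all genes 40.1% were higher, and the 1669 genes with at least 100 TPM had a median of -0.01, with 48.2% higher. No member passed a difference of 1 (0 of 79, beside 3.83% of all genes). At 1.5-fold, 1 member was higher, Rps27, beside 4.09%, and 0 were lower, beside 4.33%. With relatives the difference of Rps27 was 0.20 in place of 0.67. The large subunit had a median of 0.12 and the small subunit 0.16.

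In double KO minus Tut1 KO, the median member was at -0.17, against 0.09 over all 8950 genes, and 66 of 79 were lower. With relatives summed the median was -0.15 and 69 were lower. Quantile normalization brought the median to -0.051. Of all genes 60.3% were higher, and the 1660 genes with at least 100 TPM had a median of 0.03, with 54.7% higher. A difference of 1 was reached by 0 members, beside 3.9% of all genes. At 1.5-fold, 3 were higher, Rpl29 and Rpl17 among them, beside 6.49%, and 3 were lower (Rpl7a, Rps27l and Rps12), beside 4.18%. With relatives, Rpl29 at 0.73 and Rps27l at -0.74 were past 1.5-fold, while Rpl17 came to -0.18, Rpl7a to 0.07 and Rps12 to -0.11. With only its named pseudogenes summed, Rpl7a was at -0.34.

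Both deletions together were compared with the control by double KO minus control. The median member was at 0.08, against 0.00 over all 9022 genes, and 56 of 79 were higher, as were 57 with relatives summed, with the same median of 0.08. Of all genes 49.8% were higher, and the 1675 genes with at least 100 TPM had a median of 0.03, with 57.9% higher. Genes of other function matched to the members in length and GC content, described below, had 0.09, so the members did not stand out from them. No member reached a difference of 1, where 3.31% of all genes did. At 1.5-fold, Rps27a was higher, beside 3.38%, and Rps12 was lower, beside 4.38%. Both fell back with relatives, from 0.97 to 0.21 and from -0.83 to -0.07. The large subunit had a median of 0.08 and the small subunit 0.13. Under quantile normalization the median of all expressed members was 0.05 here, 0 in double KO minus Trp53 KO and 0.05 in Trp53 KO minus control.

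**Figure D3:**
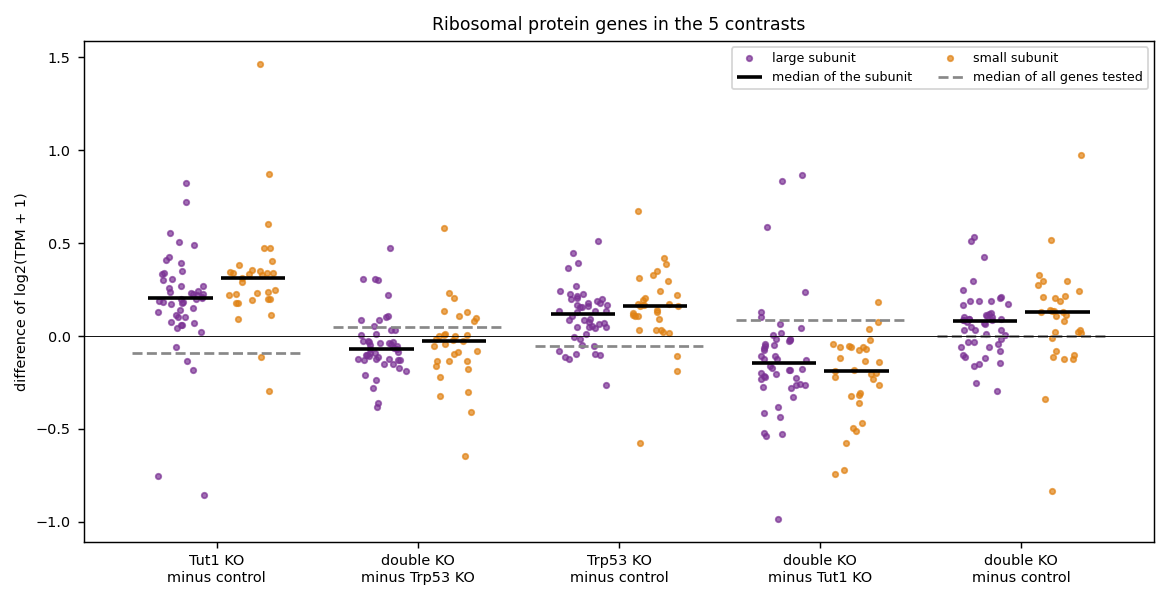
Difference of log2(TPM + 1) of the 79 expressed members in the 5 contrasts, with 1 point per gene, the large subunit in purple and the small subunit in orange. Black bars are subunit medians and dashed lines the median of all genes tested. The members lie above that line in Tut1 KO minus control (medians 0.20 and 0.31 against -0.09) and below it in double KO minus Tut1 KO.

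The subunits differed in level for the gene alone, and less so with relatives summed. Members of the small subunit had a higher median than those of the large subunit in every library, with 1735 against 1367 TPM in the control and 2420.3 against 1554 TPM in the Tut1 KO library. With relatives summed the medians in the control were 2031 and 2011 TPM, and in the Tut1 KO library 2646 and 2155 TPM. The sum over the large subunit was 1.27, 1.16, 1.22 and 1.21 times that over the small subunit. The large minus small difference of medians was -0.11 in Tut1 KO minus control, and between -0.05 and 0.04 in the other contrasts. With transcript length and GC content fitted and removed, it was -0.05 in Tut1 KO minus control.

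Short genes of other function moved in the same direction as the members, by less, in both contrasts with the largest medians. The longest coding transcripts of the expressed members had a median of 937 nucleotides, against 3044 for the 8390 other expressed protein-coding genes. In Tut1 KO minus control, 300 genes of other function within the middle range of the members in both length and GC content had a median of 0.14, against 0.23 for the members. In double KO minus Tut1 KO, 297 such genes had -0.06, against -0.17. With length and GC content fitted and removed, the medians of the members were 0.22 and -0.14 in these contrasts. The other contrasts differed in this. In double KO minus control such genes had 0.09, against 0.08 for the members. In double KO minus Trp53 KO they had 0.04, against -0.05. Trp53 KO minus control gave 0.03, against 0.13.

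Members on the X chromosome were compared with autosomal members. Xist, the RNA of X inactivation, had 0.01, 188, 204 and 0.009 TPM, so in every contrast but double KO minus control the sex of the cells and the genotype cannot be told apart. The X-linked members Rpl10, Rps4x, Rpl36a and Rpl39 had a median difference of 0.28 in Tut1 KO minus control, against 0.23 for the 75 autosomal members, and of 0.17 against 0.13 in Trp53 KO minus control. With relatives summed these were 0.27 against 0.24, and 0.17 against 0.14. The widest of these gaps was in double KO minus Tut1 KO, at -0.22 against -0.16 for the gene alone and -0.26 against -0.15 with relatives summed. The values for double KO minus Trp53 KO were -0.09 against -0.04, and -0.11 against -0.06. Without a difference in Xist, in double KO minus control, they were 0.05 against 0.09, and 0.02 against 0.09.

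The label groupings can also be read across all 4 libraries. Both Trp53-deleted libraries were below both Trp53-intact libraries for 7 of 79 members, beside 13.4% of the 9314 genes with at least 10 TPM in any library, and above them for 7, beside 14.2%. The largest gap downward was that of Rps27l, 0.34 between the nearer libraries, and the next were Rpl3 (0.26) and Rps28 (0.11). For the Tut1 label, both deleted libraries were above both intact ones for 22 of 79 members, or 27.8% beside 15.3% of all genes, and below them for 4, beside 17.1%. With relatives summed the 22 became 14, or 17.7% beside 15.2% of all genes, and Rpl10a, Rpl27 and Rps25 had the widest gaps (0.25, 0.15 and 0.13). For the Trp53 label, 6 members lay below and 6 above with relatives summed. There Rps27l still had the widest gap downward (0.34), followed by Rpl37 (0.22). The gap of Rpl3 downward was lost with relatives, since Rpl3-ps1 had 269, 232, 669 and 647 TPM.

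Rps27l is a paralog of Rps27 and a known transcriptional target of p53. It had 1099.5, 1455, 738 and 868 TPM, and its 5 relatives held under 1 TPM in total. Both libraries with intact Trp53 were above both with deleted Trp53. Its difference in Trp53 KO minus control, -0.57, was the lowest of the 79 members, and that in double KO minus Tut1 KO, -0.75, was the second lowest and with relatives summed the lowest. In the Tut1 contrasts Rps27l differed by 0.40 with Trp53 and by 0.23 without it, at ranks 67 and 74 of the 79 members, counted from the lowest. Under quantile normalization these were 0.19 and 0.25, so their order depends on the scaling.

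Set against Rps27, Rps27l made up 44.5%, 36.7%, 25.2% and 30.7% of the TPM of the pair. With Rps27rt and the other relatives counted, the shares were 35.1%, 35.5%, 24.0% and 28.0%. The fall in the share from the control to the Tut1 KO library was thus absent when the TPM of the relatives was included. That to the Trp53 KO library was present by both measures. Among genes of the p53 axis, Cdkn1a, an inhibitor of the cell cycle, had 477, 605, 196 and 179 TPM and Mdm2, the ligase that marks p53 for degradation, had 69.1, 69.6, 38.8 and 43.4 TPM, also lower in both libraries with deleted Trp53.

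Rpl22l1 is the paralog of Rpl22, a large subunit protein whose loss is known to raise Rpl22l1. Rpl22l1 had 992, 1124, 981 and 831 TPM, and Rpl22 had 371, 447, 415 and 442 TPM. The paralog was the more abundant of the pair in each library. It made up 72.8%, 71.5%, 70.3% and 65.3% of the pair, and 72.3%, 71.0%, 69.4% and 64.8% with the relatives of Rpl22 alone counted. Rpl22l1 with its own relatives had 1003, 1139, 1050 and 898 TPM. In double KO minus control, Rpl22l1 was at -0.25 and Rpl22 at 0.25, so the pair parted by -0.50, the widest of the 5 contrasts. With the relatives of both summed, Rpl22l1 was at -0.16 and the pair parted by -0.41.

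Rpl36al, the paralog of Rpl36a, had between 757 and 895 TPM and made up between 37.1% and 41.95% of its pair. Rpl7l1, the paralog of Rpl7, had between 103.5 and 117.7 TPM and made up between 4.04% and 5.44%. It parted from Rpl7 by -0.36 in Tut1 KO minus control. In Trp53 KO minus control it parted by -0.45, with Rpl7 at 0.40 and Rpl7l1 at -0.05. Rpl36al parted from Rpl36a by 0.29 in double KO minus Trp53 KO. Rps4l, annotated as a transcribed processed pseudogene here and so no member, had between 12.7 and 20.8 TPM, under 1% of its pair with Rps4x, and parted from it by 0.48 in Tut1 KO minus control.

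**Figure D4:**
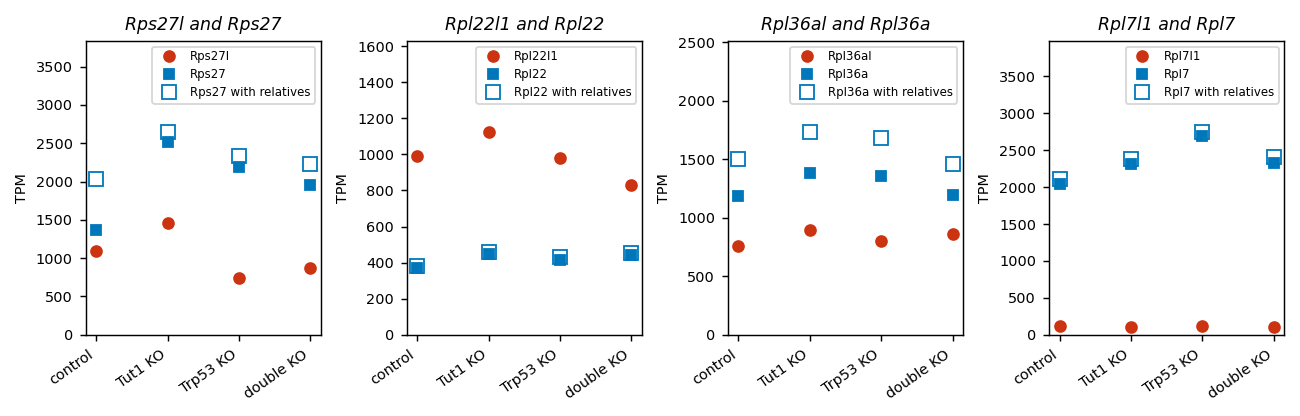
TPM (linear axis from 0) of 4 paralogs (red circles) and their parent genes (filled blue squares), with the parent and its relatives summed (open squares), by library with 1 point each. Rps27l is lower in the Trp53 KO and double KO libraries, Rpl22l1 lies above Rpl22 throughout, and Rpl36al and Rpl7l1 lie below their parent genes.

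Genes of related function that are no members gave a comparison for the shift. Rps3a1 and Fau, ribosomal protein genes outside the symbol rule, had differences of 0.11 and 0.50 in Tut1 KO minus control, both under 1.5-fold. Among 19 other genes with TOP mRNAs, such as translation factors, the median was 0.04 and 11 were higher, and 0 of 19 were past 1.5-fold in either direction. Eef1a1, the most abundant of them, had 9548, 9199, 9453 and 9295 TPM. Among 78 genes for mitochondrial ribosomal proteins the median was 0.13, with 58 higher, 5 past 1.5-fold upward and 0 downward, beside the 4.01% and 8.1% of all genes. Medians in the other contrasts are set beside those of the members. Where the members had -0.05, in double KO minus Trp53 KO, the mitochondrial genes had 0.10, with 58 of 78 higher, and the other TOP mRNAs had 0.04. Double KO minus Tut1 KO gave -0.17 for the members, -0.07 for the mitochondrial genes and 0.08 for the other TOP mRNAs. Trp53 KO minus control gave medians of 0.13 for the members, 0.05 for the other TOP mRNAs and -0.0035 for the mitochondrial genes. Double KO minus control gave 0.08 for the members, 0.09 for the other TOP mRNAs and 0.11 for the mitochondrial genes. Of the 19 other TOP mRNAs, 1 was past 1.5-fold upward in double KO minus Trp53 KO, beside 3.48% of all genes. In double KO minus Tut1 KO these were 2, beside 6.49%, and in double KO minus control 1, beside 3.38%. Eif3e was among them each time. Of 10 regulators of TOP mRNAs, 9 could be compared in Tut1 KO minus control, with a median of -0.08 and 0 past 1.5-fold, beside the same shares. The tenth, Larp1b, stayed under 10 TPM in that contrast but had 0.376, 7.03, 0.608 and 10.2 TPM over the 4 libraries, and it differed by 2.80 in double KO minus Trp53 KO. Larp1b in the double KO library differed from the control by 3.03. Mtor had 17.2, 19.5, 20.6 and 19.2 TPM and Larp1 had 46.4, 44.0, 50.4 and 53.7 TPM.

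Markers of neural stem cells, led by Fabp7 and Vim, summed to between 10666 and 12553 TPM, and those of neurons to between 160.5 and 229 TPM. Astrocyte markers summed to between 82.2 and 93.5 TPM, most of it Aldh1l1, while Gfap and Aqp4 were under 1 TPM in each library. Oligodendrocyte markers summed to 4.50, 5.26, 5.89 and 8.36 TPM. All markers of microglia, endothelium, fibroblasts and red cells were under 1 TPM in each library. The neuronal sum was carried by Map2, with 208, 141, 181 and 191 TPM, while Dcx had 2.77, 3.13, 2.42 and 3.03 TPM. The lowest sum of neuronal markers and the highest share of ribosomal protein genes were both in the Tut1 KO library, and any part of the first in the second was not tested. In bulk samples, fewer cells of a type and less RNA per cell cannot be told apart.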

How the data were processed

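Libraries of cultured neural stem cells were represented by a gene table of TPM computed and deposited by the authors, 1 column per library. The submitters' processing notes list Trimmomatic, HISAT2, StringTie and mm10, without versions or settings. The labels describe a short-read stranded mRNA kit and the series text long reads, so the platform behind the table is uncertain. TPM keeps no depth, which is therefore unknown, and no counting interval was computed. How reads with several matches, strand and isoforms were handled is not given in the sources used here.

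Differences were taken on log2(TPM + 1), with at least 10 TPM in either library of a contrast, and understate the change of low genes. Thresholds were a difference of 1 and 1.5-fold. Gene models came from GENCODE M21, which held 55141 of the 55487 IDs. Relatives were found with blastn 2.17.0 (90% identity, 60% coverage, 200 aligned bases) after values had been seen. Coding windows were those of the principal isoform, which 76 of the 82 members have, and otherwise of the longest transcript. Named genes were the 5 most and least abundant members, the 5 largest rises and falls of each contrast (fewer are printed), paralog pairs, X-linked members and genes of preset lists. Rps28, Rpl27, Rps25, Rpl37a and single pseudogenes were named after their values were seen. A few genes counted here are not reported by name. The members and lists were chosen with earlier results of these data known. Alternatives are given in the closing section. The code was tested on simulated data and run with Python 3.11.15, numpy 2.4.6, pandas 2.3.3 and matplotlib 3.10.9.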

Additional observations from a re-analysis of the deposited data

Results flagged for a closer look

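The median of the expressed members moved in opposite directions in the 2 Tut1 contrasts, 0.23 with Trp53 and -0.05 without it, which differ by 0.28. Under quantile normalization they were 0.11 and 0. Rps27 differed by 0.87 with Trp53 and by -0.16 without it, a gap of 1.03, and with Rps27rt and the other relatives summed the gap was 0.44. With 1 library per group neither difference was tested, and in both contrasts the sexes of the compared libraries, as read from Xist, were in opposite order.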

How the results depend on the processing

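No paired analysis was possible because each group had 1 library without a replicate number, and for the same reason no library could be left out. Of 165 alternative values for the medians, counts, subunit differences and shares, 137 moved by less than 0.1 on the log2 scale (counts by no more than 1.5 times) and 28 moved further. Some could not move. All expressed members were above 100 TPM, so filters at 10 and 100 TPM kept the same members. Centring on all genes cannot change a subunit difference. The tolerance of 0.1 is wider than several of the medians, so the tally does not measure how stable those are. Quantile normalization gave medians of 0.11 for Tut1 KO minus control and -0.051 for double KO minus Tut1 KO. No median changed its sign under any of these alternatives, although that of double KO minus Trp53 KO came to 0 under quantile normalization. A subset outside them did differ in sign. The 10 members without a relative above 1 TPM had a median of -0.07 in double KO minus control, with 7 lower, where all members had 0.08. In the other contrasts the sign of their median was that of all members. The count past a difference of 1 in Tut1 KO minus control fell to 0 with named pseudogenes or, chosen after seeing the data, all sequence relatives summed. In double KO minus Tut1 KO it rose to 1 after centring on all genes, rescaling without mitochondrial and ribosomal protein genes, or correction for GC content and length. At 1.5-fold the counts were 7 in Tut1 KO minus control, 1 in double KO minus Trp53 KO, 1 in Trp53 KO minus control, 6 in double KO minus Tut1 KO and 2 in double KO minus control. Shares of all TPM, with the libraries in the order of the report, were 14.2%, 16.6%, 15.6% and 15.05% without mitochondrially encoded genes in the total, 15.0%, 18.0%, 16.8% and 16.05% among protein-coding genes, 14.5%, 17.2%, 16.2% and 15.5% with named pseudogenes, and 16.2%, 18.8%, 18.0% and 17.1% with sequence relatives. The order of the libraries was the same each time. Single libraries and unknown depth limit every value.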
